A study of Mus musculus with 7 samples.

Results

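The tumour suppressor p53, its inhibitor Mdm2 and 8 genes known to be switched on by p53 or by cellular stress were measured in granulosa cells, which nurse the oocyte inside the follicle and make steroid hormones. The 10 genes were taken by symbol (Trp53, Mdm2, Ccng1, Gadd45a, Gadd45b, Gadd45g, Sesn1, Sesn2, Eda2r and Phlda3) from a table of 50095 genes, and each symbol matched 1 row. The cells came from ovaries of female mice, 3 weeks old, that received 5 IU of pregnant mare serum gonadotropin to grow follicles, and an ovulation trigger of 5 IU human chorionic gonadotropin (hCG) was given after 48 h. RNA from 4 libraries labelled WT (Ezh2flox/+; Cyp19-Cre) was compared with RNA from 3 libraries labelled KO (Ezh2flox/flox; Cyp19-Cre). All 7 libraries therefore carried a Cre recombinase driven by the aromatase promoter, and the WT group carried 1 floxed allele of Ezh2, the methyltransferase of Polycomb repressive complex 2. The time from hCG to collection and whether each library was a separate animal are not stated in the labels, so p-values measure the spread between these libraries, which may be technical. WT4 carries the treatment label of the KO group with the title and genotype of WT, and it was kept in WT.

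p53 is a transcription factor that is held at a low level by Mdm2, a ubiquitin ligase that marks it for breakdown and whose gene p53 itself activates. DNA damage and other stress release p53 from this loop, and its targets then slow the cell cycle, repair DNA, limit growth or start cell death. Much of this control acts on the p53 protein, which RNA levels do not measure. In the ovary p53 is known for its part in granulosa cell apoptosis during follicle atresia, and the GADD45 and sestrin genes also answer to stress signals that do not need p53.

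Levels are given as FPKM, fragments scaled to transcript length and to the fragments of the library, so they can be compared between genes. Group values are mean ± SD (WT, n = 4; KO-labelled, n = 3). Differences are KO-labelled minus WT on the scale of log2(FPKM + 1), which shrinks the differences of genes at low FPKM, and a gene was called at a limma adjusted p under 0.05 over the 13850 genes whose mean reached 1 FPKM. Fold values are ratios of group means.

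The libraries held granulosa cell RNA, with the fate factor Foxl2 at 13.3 to 20.5 FPKM and the FSH receptor Fshr at 23.8 to 35.7 FPKM in WT. The targeted gene Ezh2 (chromosome 6, 47530139 to 47595341) measured 20.5, 23.4, 25.2 and 25.3 FPKM across WT1 to WT4, against 20.03, 17.8 and 26.15 FPKM across KO1 to KO3 (log2 difference -0.15, limma adjusted p = 0.432), so its level does not check the KO labels. A whole-gene FPKM also counts exons outside the deleted part. Summed FPKM of 12 granulosa markers ran from 5219 to 7354 in WT and from 3300.0 to 4756 in KO-labelled libraries, while 13 macrophage markers ran from 25.5 to 46.9 and from 71.1 to 154, and 11 endothelial markers from 11.4 to 24.8 and from 45.2 to 65.0. The 8 smooth muscle markers summed to 62.2 to 110.5 FPKM in WT and 132 to 364 FPKM in KO-labelled libraries, and the 9 epithelial markers to 41.4 to 54.3 FPKM and 75.9 to 143 FPKM. None of these 5 lists overlapped between the groups (two-sided exact permutation p = 0.0286 for all but the granulosa list, at 0.0571, and adjusted over 8 marker lists p = 0.0571 or more; 0.0286 is the smallest p that 35 splits can give). The 6 erythroid markers did not overlap either, at 1051 to 2674 FPKM in WT and 3021 to 4771 FPKM in KO-labelled libraries (exact permutation p = 0.0571), and all 5 that were tested were called higher. Theca (p = 0.114) and oocyte markers (p = 0.371) overlapped in the same exact permutation test, and no marker of any list was at 0 in every library. Many were low, and 5 of the 13 macrophage and 5 of the 11 endothelial markers averaged under 1 FPKM in WT. In WT 1 macrophage and 0 endothelial markers reached a mean of 5 FPKM. In bulk RNA, fewer cells of a type and less RNA per cell cannot be told apart, and the part of these shifts in the results below was not tested.

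The promoter windows of the 10 genes, 250 bases before to 50 bases after the start site, were read from RefSeq (GRCm38.p6). All 10 genes had a window and Sesn1 had 2, which makes 11 windows. The p53 response element is built from a pair of decamers of one consensus, and 5 of the 11 windows held 1 match to this consensus decamer each (searched on both strands), against 8.36% of 32851 windows in all. They are shown with 20 bases on each side, 5′ to 3′ on the gene's strand, with the matching decamer in capitals, because they let the 5 genes be set side by side. The windows lie at chr11:69580264-69580313 (plus strand) for Trp53, chr10:117710915-117710964 (minus) for Mdm2, chr11:40755442-40755491 (minus) for Ccng1, chr6:67037418-67037467 (minus) for Gadd45a and chr10:41887246-41887295 (plus) for the downstream start of Sesn1.
Trp53: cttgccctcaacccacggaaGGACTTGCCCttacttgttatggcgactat
Mdm2: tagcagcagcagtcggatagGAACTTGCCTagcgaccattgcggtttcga
Ccng1: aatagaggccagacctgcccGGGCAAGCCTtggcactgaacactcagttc
Gadd45a: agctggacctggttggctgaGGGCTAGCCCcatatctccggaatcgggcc
Sesn1: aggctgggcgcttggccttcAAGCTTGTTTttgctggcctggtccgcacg

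The match began 75 bases before the start site in Trp53, 186 in Mdm2, 185 in Ccng1, 40 in Gadd45a and 173 in Sesn1. No window of these genes held 2 matches, which 0.359% of all windows did. The windows of Gadd45b, Gadd45g, Sesn2, Eda2r, Phlda3 and the upstream start of Sesn1 held none, and none of the 11 held the cyclic AMP element TGACGTCA (in 1.79% of all windows) or the AP-1 site TGANTCA (in 7.81%), both searched on both strands. A match is a description of letters in a 300-base window, not a bound site.

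All 10 genes were expressed enough to be tested. Gadd45a, Gadd45g and Phlda3 rose and Eda2r fell in KO-labelled libraries, and Trp53, Mdm2, Ccng1, Gadd45b, Sesn1 and Sesn2 were not called. These 4 calls of 10 stand beside 24.6% of all genes tested that were called, the 3 rises beside 7.91% called higher and the 1 fall beside 16.7% called lower. The groups did not overlap for 7 of the 10 genes, with KO-labelled libraries above in 4 and below in 3, and for 36.3% of all genes tested. Of the 13850 genes tested, KO-labelled libraries were all above WT for 1589 and all below WT for 3435. The median log2 difference of the 10 was 0.03, and that of all genes tested was -0.08. With median-of-ratios scaling the split of the 10 was again 3 higher and 1 lower, and with each library scaled to 1 common FPKM sum it was 2 higher and 3 lower. Over all genes 1095 higher and 2315 lower became 1597 and 1475 under the former, with the median of all genes at 0.007 in place of -0.08, and 847 and 3947 under the latter, with that median at -0.21. The groups did not overlap for 5 and for 4 of the 10 genes, in that order. The share of all genes without overlap was not counted under these 2 scalings, so these counts have no background.

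**Figure D1:**
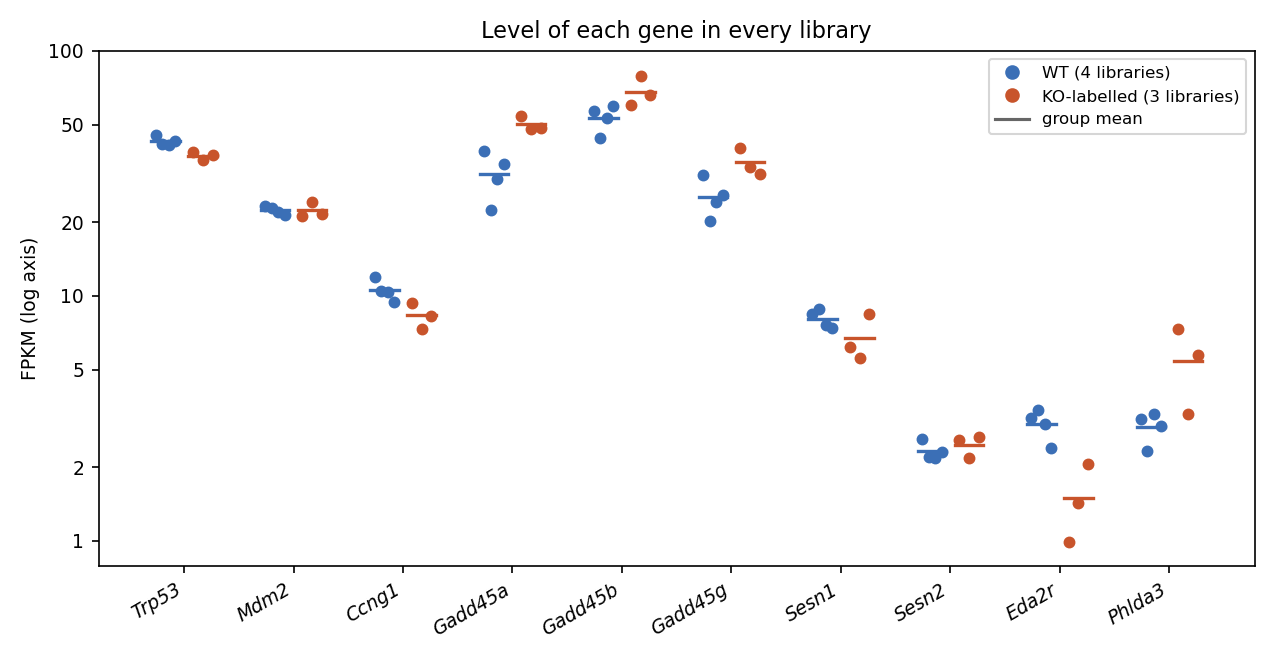
Level of each of the 10 genes in FPKM (log axis), with 1 point per library (blue, 4 WT; orange, 3 KO-labelled) and a bar at the group mean. The orange points of Gadd45a lie between 48.0 and 54.4 FPKM, above all 4 blue points, and those of Mdm2 lie among the blue points.

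**Figure D2:**
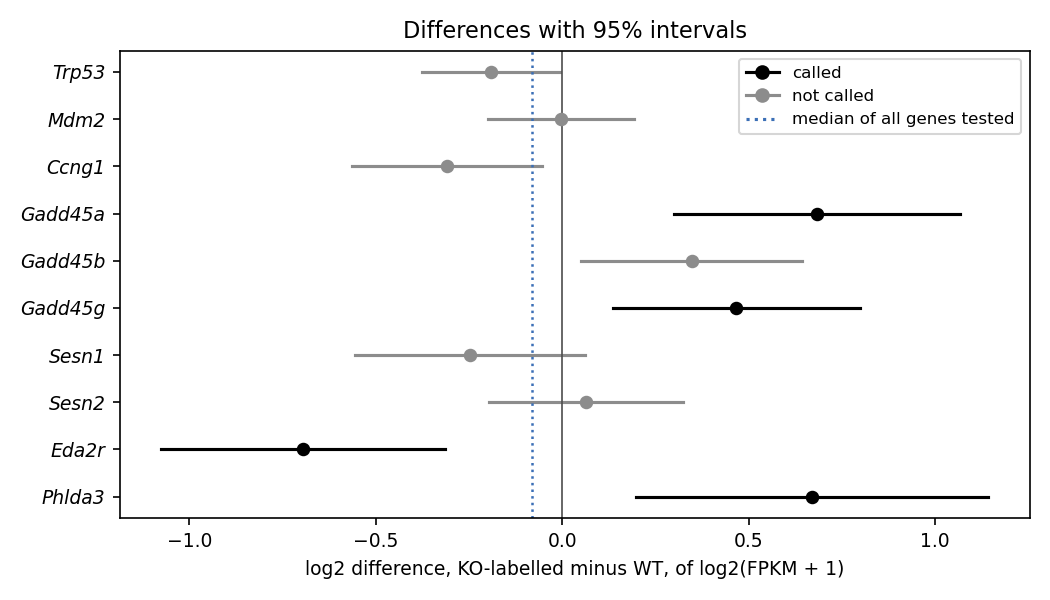
Difference of KO-labelled minus WT libraries on the scale of log2(FPKM + 1) for each gene, with its 95% interval from limma; black marks called genes, grey genes not called, and the dotted line the median of all genes tested (-0.08). Gadd45a, Gadd45g and Phlda3 lie to the right of 0 and Eda2r to the left.

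Trp53 (ENSMUSG00000059552, GRCm38 chromosome 11, 69580359 to 69591873, plus strand), which encodes p53, was among the better expressed genes, with a mean of 40.4 FPKM over the 7 libraries, at or above 90.4% of the genes tested. Its level was 45.3, 41.7, 41.2 and 42.8 FPKM across WT1 to WT4, against 38.6, 35.8 and 37.6 FPKM across KO1 to KO3. The groups did not overlap, all 3 KO-labelled libraries were below the lowest WT library, and the spread within each group was small (42.8 ± 1.83 and 37.3 ± 1.43 FPKM). The log2 difference of -0.19 (SE 0.08, 95% interval -0.38 to -0.005) had an unadjusted p of 0.0456 and was not called (limma adjusted p = 0.117). It was called only with a common FPKM sum (log2 -0.34, adjusted p = 0.0159), and the difference was -0.08 with the length correction. An annotated pseudogene, Trp53-ps, was listed at 0 in every library.

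Mdm2 (ENSMUSG00000020184, chromosome 10, 117688875 to 117710758, minus strand), the ubiquitin ligase that restrains p53, was at the same level in both groups to within 1 SD. Its values were 23.3, 22.7, 22.01 and 21.3 FPKM in WT and 21.2, 24.1 and 21.5 FPKM in KO-labelled libraries, so the groups overlapped and KO2 was the highest library of all. The log2 difference was -0.004 (SE 0.09, 95% interval -0.20 to 0.19, limma adjusted p = 0.977). That interval holds for the deposited values and does not include the choice of scaling. The log2 difference of Mdm2 was -0.15 with a common FPKM sum, 0.096 with median-of-ratios scaling and 0.099 with the length correction. Mdm4, the relative of Mdm2 that also binds p53, was picked once its values were known and stood at 47.3 ± 1.61 and 43.1 ± 4.20 FPKM with a log2 difference of -0.13 (adjusted p = 0.307).

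Ccng1 (ENSMUSG00000020326, chromosome 11, 40748552 to 40755311, minus strand) encodes cyclin G1, a p53 target that feeds back on the p53 and Mdm2 loop. It stood at 11.9, 10.5, 10.4 and 9.45 FPKM in WT and at 9.38, 7.32 and 8.29 FPKM in KO-labelled libraries. KO1 lay just below WT4, so the groups were separated by less than 0.1 FPKM. The log2 difference was -0.31 (SE 0.11, 95% interval -0.57 to -0.06), with limma adjusted p = 0.0741, and the gene was called only with a common FPKM sum (log2 -0.45, adjusted p = 0.0135).

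The 3 GADD45 genes encode small acidic proteins that bind cell cycle kinases and the stress kinase MAP3K4, and their mRNAs answer quickly to DNA damage and other stress. All 3 were abundant, and as deposited every KO-labelled library exceeded every WT library for each of them. The same held for 1589 of the 13850 genes tested. With a common FPKM sum KO1 fell below WT4 for Gadd45b and KO3 fell below WT1 for Gadd45g. Only Gadd45a then stayed without overlap. The FPKM values that follow are as deposited. Their summed level was 110.1 ± 17.6 FPKM in WT and 153 ± 7.41 FPKM in KO-labelled libraries. Gadd45b was the most abundant of the 3 in every library.

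Gadd45a (ENSMUSG00000036390, chromosome 6, 67035096 to 67037457, minus strand), the member most directly tied to p53, measured 39.0, 22.3, 29.95 and 34.6 FPKM across WT1 to WT4, against 54.4, 48.0 and 48.4 FPKM across KO1 to KO3. The WT libraries were spread widely, with WT2 lowest, while the KO-labelled libraries lay close together. The groups did not overlap. The rise from 31.5 ± 7.14 to 50.2 ± 3.58 FPKM was 1.597-fold (log2 0.68, SE 0.17, 95% interval 0.30 to 1.07, limma adjusted p = 0.0217). The call was lost without WT3 (adjusted p = 0.0592), KO1 (0.0782) or KO3 (0.0532) and when genes of low level were kept (0.0726), and the adjusted p ran from 0.0142 to 0.0782 over 14 alternatives. Exons of the opposite-strand gene E230016M11Rik share 337 bp with those of Gadd45a; it stood at 0.896 and 0.637 FPKM in WT and KO-labelled libraries, and whether the libraries kept strand is not stated in the labels, so reads in the shared part cannot be assigned.

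Gadd45g (ENSMUSG00000021453, chromosome 13, 51846678 to 51848468, plus strand), the third of the family, was at 31.1, 20.2, 24.1 and 25.7 FPKM in WT and 40.2, 33.6 and 31.4 FPKM in KO-labelled libraries. The groups were separated by a narrow gap between WT1 and KO3. The rise from 25.3 ± 4.51 to 35.1 ± 4.56 FPKM (1.39-fold, log2 0.47, SE 0.15, limma adjusted p = 0.0466) lay close to the threshold. The call was lost in 9 of 14 alternatives, among them each left-out library except WT1, the length correction (adjusted p = 0.0641) and a common FPKM sum (0.0835), with an adjusted p from 0.0217 to 0.160.

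Gadd45b (ENSMUSG00000015312, chromosome 10, 80930073 to 80932204, plus strand), known also as a target of NF-kappaB and of TGF-beta signals, was at 56.8, 44.2, 52.9 and 59.4 FPKM in WT and 59.9, 78.7 and 65.8 FPKM in KO-labelled libraries. WT4 and KO1 nearly met. On the log2 scale KO-labelled libraries differed by 0.35 (SE 0.13, 95% interval 0.05 to 0.64), which was not called (limma adjusted p = 0.0825), with 1.28-fold between the group means of 53.3 ± 6.62 and 68.1 ± 9.63 FPKM. No alternative called it.

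Sestrins are stress proteins that restrain the growth kinase mTORC1 when leucine is scarce, and Sesn1 and Sesn2 are both p53 targets. Sesn1 (ENSMUSG00000038332, chromosome 10, 41809935 to 41908424, plus strand) was at 8.43, 8.85, 7.58 and 7.40 FPKM in WT and 6.15, 5.57 and 8.42 FPKM in KO-labelled libraries. KO1 and KO2 were below every WT library and KO3 was among them, so the groups overlapped (log2 -0.25, SE 0.14, 95% interval -0.56 to 0.06, limma adjusted p = 0.205). Without KO3 the difference was -0.40 (adjusted p = 0.0506).

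Sesn2 (ENSMUSG00000028893, chromosome 4, 132492032 to 132510501, minus strand), which is also driven by the amino acid stress factor ATF4, was the least abundant of the 10 genes in WT. It stood at 2.60, 2.19, 2.19 and 2.29 FPKM in WT and at 2.59, 2.17 and 2.65 FPKM in KO-labelled libraries. The ranges covered each other (log2 0.06, SE 0.11, 95% interval -0.20 to 0.32, limma adjusted p = 0.707). The third sestrin, Sesn3, a FoxO target picked once its values were known, was at 9.27 ± 1.07 and 7.97 ± 0.801 FPKM (log2 -0.19, adjusted p = 0.235).

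Eda2r (ENSMUSG00000034457, X chromosome, 97333840 to 97377216, minus strand) encodes a receptor of the tumour necrosis factor family for the ligand ectodysplasin A2. It was the one gene of the 10 called lower in the deposited values. Its level was 3.16, 3.42, 2.98 and 2.40 FPKM in WT and 0.986, 1.43 and 2.07 FPKM in KO-labelled libraries. KO1 was lowest and KO3 highest of the latter, all 3 below the lowest WT library. The fall from 2.99 ± 0.432 to 1.49 ± 0.543 FPKM (log2 -0.70, SE 0.17, 95% interval -1.08 to -0.32, limma adjusted p = 0.02004) made it the lowest of the 10 genes in KO-labelled libraries. It was not called without WT3 (adjusted p = 0.0554), without KO1 (0.0744) or with no filter (0.0664), and with a pseudocount of 0.1 the log2 difference was -1.002.

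Phlda3 (ENSMUSG00000041801, chromosome 1, 135766119 to 135769136, plus strand) encodes a small pleckstrin homology domain protein that competes with the kinase AKT for membrane lipids. Values were 3.13, 2.32, 3.28 and 2.94 FPKM in WT and 7.30, 3.30 and 5.71 FPKM in KO-labelled libraries. KO2 barely exceeded WT3, while KO1 and KO3 stood well above every WT library. The rise from 2.92 ± 0.424 to 5.44 ± 2.01 FPKM (1.86-fold, log2 0.67, SE 0.21, limma adjusted p = 0.0451) was lost in 7 of 13 alternatives, namely without any one library other than KO2, and with no filter, and the adjusted p ran from 0.00693 to 0.162. Without KO1 the log2 difference was 0.46, and without KO2 it was 0.94.

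Eda2r and Phlda3 moved in opposite directions, and their whole promoter windows are shown with each CpG in capitals. This sets the windows of lowest and highest GC content side by side. Eda2r (chrX:97377160-97377459, minus strand) had the lowest GC content of the 11 windows, 50.3%, and 5 CpGs. Phlda3 (chr1:135765835-135766134, plus strand) had the highest, 71.7%, and 26 CpGs, and the median GC content of all windows was 52.7%. CpGs observed per expected were 0.264 in Eda2r and 0.688 in Phlda3. This ratio was higher in Mdm2 (1.12), Gadd45b (0.858), Sesn1 (0.820 and 0.721) and Sesn2 (0.736), none of them called. It was also higher in Gadd45g (0.723), which was called higher. A link between CpG content and direction was not tested.
Eda2r: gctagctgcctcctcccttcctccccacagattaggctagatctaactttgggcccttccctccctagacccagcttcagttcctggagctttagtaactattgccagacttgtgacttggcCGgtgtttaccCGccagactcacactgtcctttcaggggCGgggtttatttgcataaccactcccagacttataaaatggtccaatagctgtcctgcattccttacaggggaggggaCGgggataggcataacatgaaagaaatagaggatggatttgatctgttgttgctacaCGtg
Phlda3: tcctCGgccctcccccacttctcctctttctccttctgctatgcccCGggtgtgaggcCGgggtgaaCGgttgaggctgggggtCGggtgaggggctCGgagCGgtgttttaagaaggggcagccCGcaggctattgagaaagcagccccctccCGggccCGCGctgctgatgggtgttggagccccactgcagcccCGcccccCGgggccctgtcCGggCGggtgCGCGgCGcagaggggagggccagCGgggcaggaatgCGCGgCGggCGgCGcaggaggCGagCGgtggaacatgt

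The order of levels differed between the groups. In WT it ran from Gadd45b through Trp53, Gadd45a, Gadd45g, Mdm2, Ccng1, Sesn1, Eda2r and Phlda3 to Sesn2. Ranges over the WT libraries overlapped between Gadd45b and Trp53, Gadd45a and Gadd45g, Gadd45g and Mdm2, Eda2r and Phlda3, and Phlda3 and Sesn2. In KO-labelled libraries Gadd45a stood above Trp53 without overlap, and Eda2r was the lowest of the 10.

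Transcript length moved with the direction of change. The 4 genes with short transcripts, 1071 to 1435 bp, were Gadd45a, Gadd45b, Gadd45g and Phlda3, the 4 whose KO-labelled libraries were all above WT. The other 6 had a longest transcript of 3145 to 4752 bp, and 1 of them was called, Eda2r, which fell. Of 1030 genes tested with a longest transcript of 1000 to 1500 bp, 12.5% were called higher and 4.66% lower (median log2 difference 0.08), and of 4240 genes of 3000 to 5000 bp, 6.44% and 20.5% (median -0.13). With the length correction Gadd45a (log2 0.60), Phlda3 (0.61) and Eda2r (-0.53) were still called. Over all genes the correction gave 1602 called higher and 1357 lower, in place of 1095 and 2315.

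**Figure D3:**
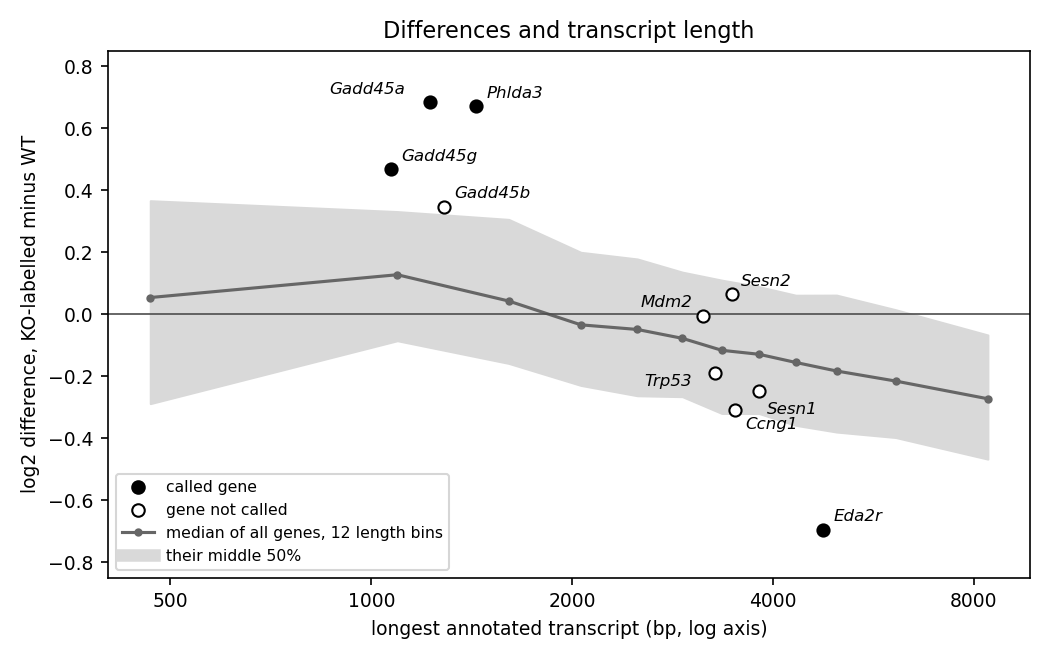
Difference of KO-labelled minus WT libraries (log2) against the longest annotated transcript in bp (log axis) for the 10 genes (filled, called; open, not called), over the median and the middle 50% of all genes in 12 bins of length. The short-transcript genes Gadd45a (0.68), Phlda3 (0.67) and Gadd45g (0.47) lie above the band and Eda2r (-0.70) below it. Gadd45b (0.35), which was not called, lies just above the band.

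The libraries of a group also differed among themselves. WT2 was the lowest WT library for 4 genes, Gadd45a, Gadd45b, Gadd45g and Phlda3, and WT1 was the highest for 6. WT2 had the highest granulosa sum (7354 FPKM) and the lowest erythroid sum (1051 FPKM) of the WT libraries, and WT1 the lowest granulosa sum (5219) and the highest erythroid sum (2674). KO1, where Phlda3 was highest and Eda2r lowest, had the lowest granulosa sum (3300.0 FPKM) and the highest smooth muscle (364) and epithelial (143) sums of all 7 libraries. KO2, where Phlda3 was near its WT level, had the lowest such sums of the KO-labelled libraries (132 and 75.9 FPKM) and the highest granulosa sum (4756). Gadd45b followed another order, with KO2 highest and KO1 lowest. The part of these cell type markers in the changes was not tested.

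**Figure D4:**
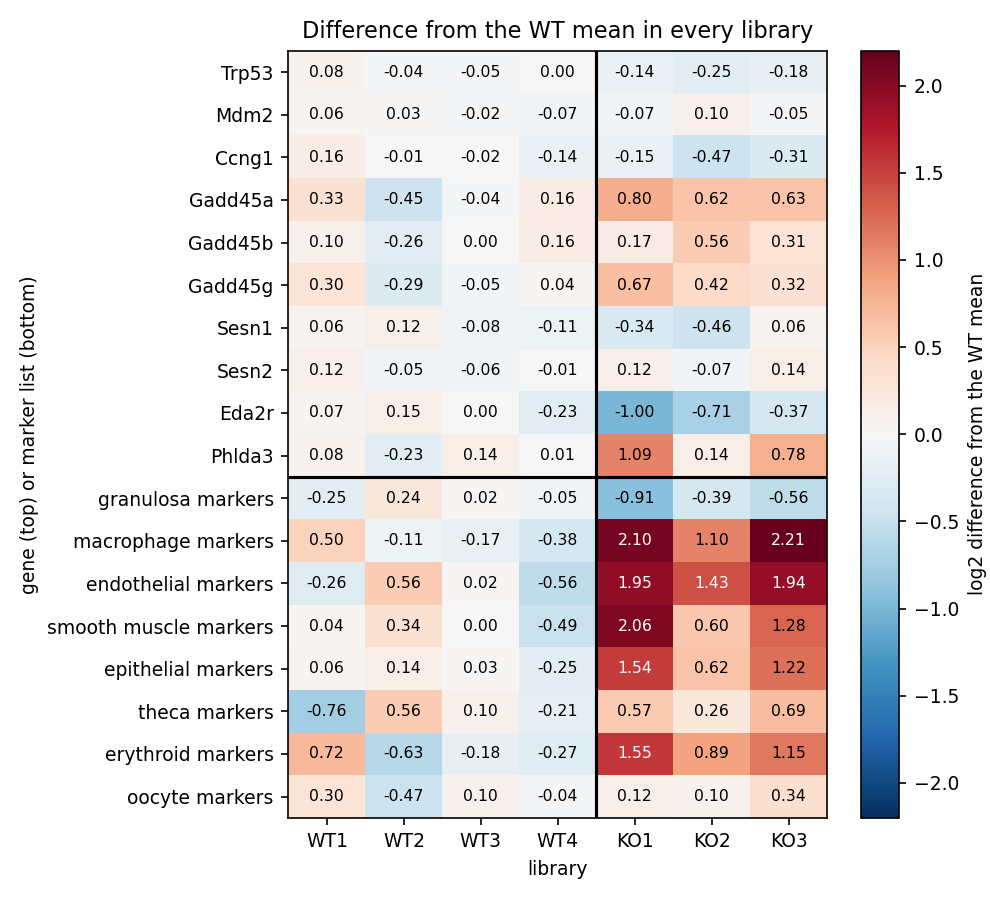
Difference from the WT mean (log2) in every library for the 10 genes, on the scale of log2(FPKM + 1), and below the line for the summed FPKM of each marker list; red is above and blue below the WT mean. KO1 holds the highest Phlda3 (1.09), the lowest Eda2r and the lowest granulosa sum (-0.91).

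Other known p53 targets moved both ways. Of 60 such genes 50 were tested, of which 7 rose and 6 fell, and their median log2 difference was -0.08, the same as that of all genes tested. The share called, 26.0%, was near the 24.6% of all genes. By direction the shares differed more, with 14% called higher and 12% lower, beside 7.91% and 16.7% of all genes. Among the rises were Ephx1, the microsomal epoxide hydrolase, from 10.2 ± 1.85 to 23.6 ± 5.09 FPKM (log2 1.13, limma adjusted p = 0.00547), and Sfn, the 14-3-3 sigma protein of epithelial cells, from 0.843 ± 0.181 to 3.06 ± 0.952 FPKM (log2 1.12, adjusted p = 0.00627). Pltp, a phospholipid transfer protein, rose from 1.12 ± 0.471 to 3.42 ± 0.837 FPKM and the LIM domain gene Crip2 from 7.05 ± 1.64 to 15.3 ± 4.74 FPKM. Sfn and another of the 7 rises, Epha2 (0.926 FPKM in WT, 2.58 FPKM in KO-labelled libraries), averaged under 1 FPKM in WT. These 2 genes reached the filter of 1 FPKM through the KO-labelled libraries. Polk, one of the falls, reached it through WT, with 1.82 FPKM in WT and 0.968 FPKM in KO-labelled libraries. The calls of Ephx1, Sfn and Pltp held in every alternative in which the gene was tested, and that of Crip2 was lost without KO1, without KO3 and with no filter. Of the falls, Pidd1 went from 4.20 to 2.04 FPKM (log2 -0.77, limma adjusted p = 0.0114). Sulf2 went from 205 ± 17.7 to 129 ± 24.5 FPKM (log2 -0.68, limma adjusted p = 0.0121). Both of these calls also held in every alternative in which the gene was tested, and the other falls lost theirs in some. Cdkn1a, described below with the GADD45 partners, is counted among the 7 rises too. Bax, the p53 target that opens mitochondria in cell death, picked once its values were known, was at 31.2 ± 4.36 and 33.8 ± 7.39 FPKM (log2 0.10, adjusted p = 0.645). The split was 8 higher and 4 lower with median-of-ratios scaling and 5 higher and 13 lower at a common FPKM sum. Mean epithelial marker sums of these libraries were 49.3 FPKM in WT and 111 FPKM in KO-labelled, and their part in the rises was not tested.

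Among 39 regulators of p53 tested, 8 fell and 1 rose as deposited, a split that was even with median-of-ratios scaling, and their median log2 difference was -0.12. The shares called, 23.1% in all and 20.5% lower, were near the 24.6% and 16.7% of all genes. The DNA damage kinases Atr, from 6.20 ± 1.04 to 3.57 ± 0.317 FPKM (log2 -0.65, limma adjusted p = 0.0109), and Chek2, from 2.75 ± 0.3998 to 1.47 ± 0.212 FPKM (log2 -0.60, adjusted p = 0.0142), fell and were called in every alternative in which they were tested. The ubiquitin ligase Huwe1, known to act on p53, fell from 47.2 ± 8.19 to 29.6 ± 5.44 FPKM (adjusted p = 0.0256), a call lost in 7 of 14 alternatives, among them both the length correction and median-of-ratios scaling. The rise was Twist1, a mesenchymal transcription factor known to oppose p53, from 1.13 ± 0.519 to 9.59 ± 7.07 FPKM (log2 2.12, adjusted p = 0.00936), with 17.4 FPKM in KO1, where the smooth muscle sum was also highest. The count was 5 higher and 5 lower with median-of-ratios scaling, 4 and 3 with the length correction, and 1 and 14 with a common FPKM sum.

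Partners of the GADD45 proteins gave 1 rise and 3 falls among 17 tested, with a median of -0.09 beside -0.08 for all genes. The shares called, 23.5% in all and 17.6% lower, were near the 24.6% and 16.7% of all genes. Cdkn1a, the cell cycle inhibitor p21 and the best known p53 target, was at 20.7, 10.8, 17.4 and 22.8 FPKM in WT and 27.8, 32.7 and 26.7 FPKM in KO-labelled libraries, and rose from 17.9 ± 5.26 to 29.1 ± 3.20 FPKM (log2 0.71, SE 0.22, limma adjusted p = 0.0431). As for the GADD45 genes, WT2 was the lowest library. The call was lost in 7 of 14 alternatives, among them a common FPKM sum, the length correction and each KO-labelled library left out. The cell cycle kinase Cdk1, which GADD45 proteins restrain, fell from 29.2 ± 2.82 to 20.7 ± 2.72 FPKM, the stress kinase gene Map2k7, whose product GADD45B binds, from 28.7 ± 2.89 to 20.4 ± 2.05 FPKM, and Mapk9, which encodes the stress kinase JNK2, from 14.6 ± 1.30 to 10.1 ± 0.669 FPKM (log2 -0.50, adjusted p = 0.0113). The Mapk9 call held in all 14 alternatives, the Map2k7 call was lost without WT3 and without KO1, and the Cdk1 call in 6, both length correction and median-of-ratios scaling included. With median-of-ratios scaling 4 partners were higher and 2 lower, and with a common FPKM sum 0 and 5.

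The pathway through which sestrins act gave 9 falls and 2 rises among 41 genes tested as deposited, a split that was even with median-of-ratios scaling, and a median log2 difference of -0.12. The shares called were 26.8% in all and 22% lower, beside 24.6% and 16.7% of all genes. Wdr59, a subunit of the GATOR2 complex that sestrins bind, fell from 9.35 ± 1.27 to 4.93 ± 1.05 FPKM (log2 -0.81, limma adjusted p = 0.00832), and this call held in all 14 alternatives. Nprl3, a subunit of GATOR1, fell from 9.77 ± 1.31 to 6.50 ± 0.165 FPKM, and Tsc1, a brake on mTORC1, from 6.59 ± 0.556 to 4.399 ± 0.521 FPKM. The rises included Lamtor4, part of the Ragulator scaffold, from 12.6 ± 1.95 to 18.5 ± 4.01 FPKM (adjusted p = 0.0423, lost in 7 of 14 alternatives). The Nprl3 call was lost without KO1, and the Tsc1 call without WT3, without KO1 and with the length correction. The split was 6 higher and 6 lower with median-of-ratios scaling, 5 and 4 with the length correction, and 0 and 17 with a common FPKM sum.

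Genes of the ATF4 stress response, which shares Sesn2 with p53, were mixed, with 3 rises and 6 falls among 30 tested and a median of 0.01. The shares called were 30% in all, 10% higher and 20% lower, beside 24.6%, 7.91% and 16.7% of all genes. Atf3, a stress-induced transcription factor, rose from 12.3 ± 5.33 to 30.8 ± 7.16 FPKM (log2 1.31, SE 0.26, limma adjusted p = 0.0107) in all 14 alternatives. The falls included 3 amino acid transporters, Slc38a2 from 88.9 ± 7.20 to 58.7 ± 13.1 FPKM, Slc7a1 from 25.9 ± 3.59 to 17.2 ± 4.37 FPKM and Slc7a5 from 43.6 ± 8.76 to 29.4 ± 3.46 FPKM. The calls of these 3 were lost in 6, 8 and 9 of 14 alternatives, with the length correction among them for each. With median-of-ratios scaling the list had 3 higher and 2 lower, and with a common FPKM sum 2 and 7.

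Among relatives of Eda2r and Phlda3, 10 were tested and 1 was called, a share of 10% beside 24.6% of all genes. Phlda1, a pleckstrin homology-like gene of the same family as Phlda3, rose from 10.4 ± 1.34 to 16.2 ± 2.48 FPKM (log2 0.59, limma adjusted p = 0.0155), with 8.70 to 11.9 FPKM in WT and 14.1 to 18.9 FPKM in KO-labelled libraries. This call was lost without KO1 (adjusted p = 0.0593).

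The genes with profiles most like those of the p53 genes over the 7 libraries were found by the root mean square difference of log2(FPKM + 1), each gene centred on its own mean, among the 8478 genes whose mean reached 5 FPKM. For Trp53 these were Zfp598 and Seh1l (0.034 and 0.036 on the log2 scale), and for Mdm2 they were Bcap31 and Uqcc1 (0.043 and 0.044). Gadd45a was nearest to Cd24a and Rcan1 (0.084 and 0.088), and Gadd45g to Klf9 and Fth1 (0.061 and 0.078). Eda2r was nearest to Tlcd1 and Cyp1b1 (0.045 and 0.063), and Phlda3 to Gpx1 and Tinf2 (0.090 and 0.093). The profiles share their libraries and the difference between the groups, and the likeness is a description.

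**Figure D5:**
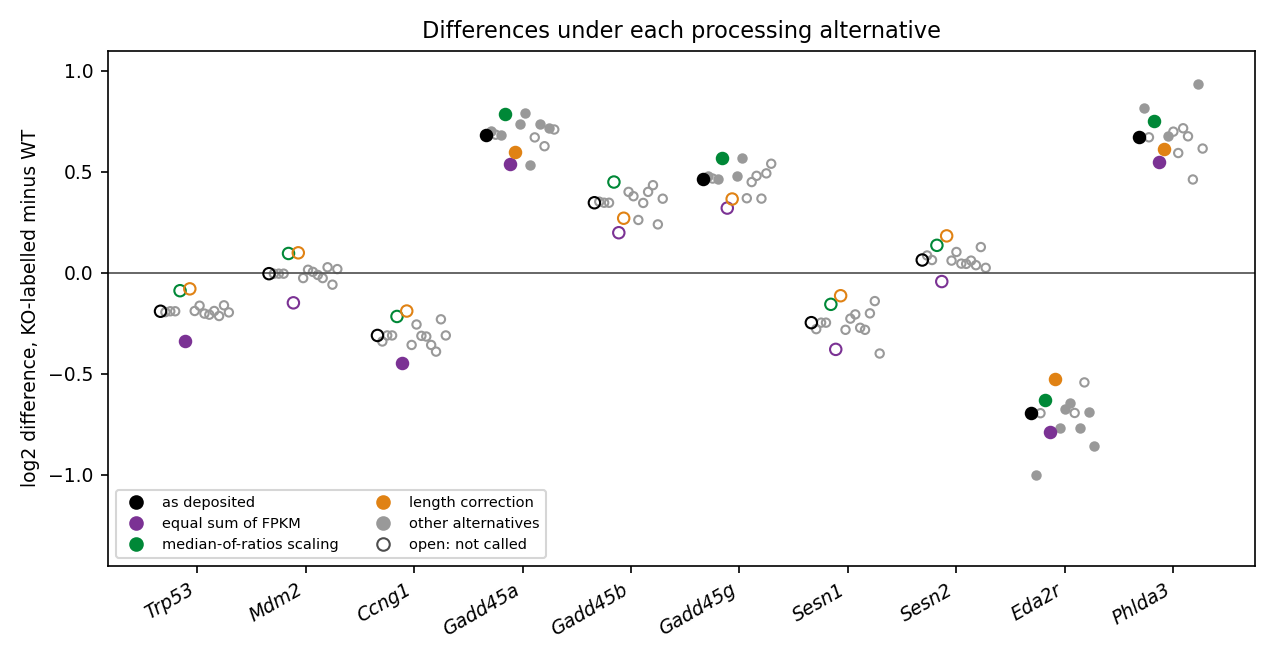
Difference of KO-labelled minus WT libraries (log2) for each gene as deposited (black) and under each alternative (purple, equal sum of FPKM in each library; green, median-of-ratios scaling; orange, length correction; grey, others), filled where called and open where not, with points of a gene spread sideways. Gadd45a, Gadd45g, Phlda3 and Eda2r stay on 1 side of 0 throughout, and Mdm2 falls on both sides, from -0.15 to 0.10.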

How the data were processed

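The authors deposited 1 table of FPKM for 4 WT and 3 KO-labelled libraries. No header or label names the unit, which was inferred from values that are not whole and whose sums differ between libraries. The build mm10 and the tools HISAT2, HTSeq 0.12.4, Trimmomatic, FastQC, edgeR and DESeq2 are listed, without roles, per the submitters' processing notes. Low values of genes with 1 transcript lay within 2% of a whole multiple of 1 fragment in at most 28.5% of cases in any library, so reads were not recovered and depth is unknown.

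The 13850 genes whose mean over the 7 libraries reached 1 FPKM were fitted as log2(FPKM + 1) with limma 3.58.1 (trend) in R 4.3.3, and Benjamini-Hochberg adjustment ran over all of them. Intervals are 95% intervals. The fit was also run on simulated libraries with independent noise for each gene. These had no length trend, scaling difference or shift in cell types, so the run cannot show how the calls behave under them. Marker sums were tested by exact permutation over 35 splits. Coordinates and transcript lengths came from GENCODE vM21 (GRCm38). Differences and lengths were compared for the 95.4% of tested genes with an annotated length.

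The 10 genes, the 6 pathway and 8 marker lists and the tests were chosen with earlier results of these data known. Every gene of the 10 was named, with up to 4 called genes of largest change per pathway list and the 2 genes of most similar profile for Trp53, Mdm2 and called genes. Epha2, Polk, Pidd1 and Sulf2 of the p53 targets were named in addition, with their values known. Alternatives were a pseudocount of 0.1, no filter, a minimum mean of 5 FPKM, median-of-ratios scaling, the same FPKM sum in every library, a lowess length correction, a block for the replicate number, and leaving out each library. Genes with an FPKM minimum of 5 did not include Sesn2, Eda2r or Phlda3.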

Additional observations from a re-analysis of the deposited data

Results flagged for a closer look

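In WT1, Huwe1, a ubiquitin ligase known to act on p53, stood at 35.01 FPKM, apart from the other WT libraries at 52.4, 51.6 and 49.6 FPKM and close to the KO-labelled values of 23.3, 32.9 and 32.5 FPKM. In the same library Atf3, the stress-induced transcription factor, stood at 20.3 FPKM, apart from 9.86, 9.05 and 9.99 FPKM in the other WT libraries and below 39.0, 26.4 and 26.9 FPKM in the KO-labelled libraries. Both were marked because the gap to the nearest library exceeded Dixon's 95% critical share of the WT range, among 60 genes examined, and chance alone marks about 1 in 20 groups of 4. None of the 10 p53 genes was marked.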

How the results depend on the processing

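Of the 10 genes, Gadd45a, Gadd45b, Gadd45g, Phlda3, Trp53, Ccng1, Sesn1 and Eda2r kept their direction in every alternative in which they were tested. Mdm2, not called anywhere, turned to 0.096 with median-of-ratios scaling and 0.099 with the length correction and ran from -0.059 to 0.028 with a library left out, and Sesn2 turned to -0.043 with a common FPKM sum. Bax turned to -0.043 with a common FPKM sum and ran from -0.058 to 0.24 with a library left out, and with the length correction Mdm4 turned to 0.10 and Sesn3 to 0.079. Genes called over the whole table numbered 1865 with no filter and 1293 to 3369 with a library left out. They numbered 2410 with a minimum mean of 5 FPKM, 2959 with the length correction and 2671 with the replicate block, against 3410 as deposited. By direction these were 1095 higher and 2315 lower as deposited, 736 and 1129 with no filter, and 685 and 1725 with the minimum of 5 FPKM. The length correction gave 1602 higher and 1357 lower, and the replicate block 921 and 1750. With a library left out, 497 to 1316 were higher and 796 to 2218 lower. The counts of the lists below stand beside these shifts of the whole table. With no filter, where more genes are adjusted for, 0 of the 10 genes were called higher and 0 lower by limma. In the filtered limma fit 7 of the 10 had an unadjusted p under 0.05, as did 5542 of the 13850 genes tested. Without the filter the lists had 2 p53 targets lower, 4 regulators lower and 0 GADD45 partners higher. They also had 1 sestrin-pathway gene higher and 5 lower, and 1 ATF4 gene higher and 0 lower. A minimum mean of 5 FPKM, which leaves out Eda2r, gave 0 of the 10 lower, 4 targets higher, 3 targets lower and 5 regulators lower. Median-of-ratios scaling gave 5 regulators higher and 5 lower, 4 partners higher, 6 sestrin-pathway genes higher and 2 ATF4 genes lower. A common FPKM sum gave 3 of the 10 lower, 13 targets and 14 regulators lower, 0 partners higher and 5 lower, and 0 sestrin-pathway genes higher and 17 lower. The length correction gave 4 regulators higher and 3 lower, 3 partners higher, 5 sestrin-pathway genes higher and 4 lower, and 3 ATF4 genes lower. With a library left out, counts higher and lower ran from 0 to 2 and 0 to 1 of the 10 genes, 4 to 7 and 2 to 6 targets, 1 to 4 and 2 to 8 regulators, 0 to 2 and 1 to 3 partners, 0 to 5 and 1 to 8 sestrin-pathway genes, and 1 to 3 and 0 to 4 ATF4 genes; 0 of the 10 were called higher without WT3, without KO1 or without KO3. The cause of these shifts was not tested. Deviations of WT and KO-labelled libraries of the same number correlated at 0.193, -0.110 and 0.0708 for numbers 1 to 3. KO1 deviated most like WT1 (0.193), KO2 most like WT4 (0.261) and KO3 most like WT2 (0.127). Correlations this small, with 3 or 4 libraries in a group, cannot decide whether the numbers pair the libraries. With the replicate block, in which WT4 is a block of its own and adds nothing, the calls among the 10 genes stayed 3 higher and 1 lower, and there were 2 targets lower, 1 sestrin-pathway gene higher and 3 ATF4 genes lower.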

Other observations

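Ratios between genes of 1 library do not depend on its scaling, and some separated the groups. They are not corrected for the trend with transcript length. Gadd45a (1223 bp) per Trp53 (3275 bp) and Phlda3 (1435 bp) per Eda2r (4752 bp) each set a short transcript against a long one. The share of all gene pairs that separate the groups was not counted. Mdm2 per Trp53 was 0.514, 0.546, 0.534 and 0.497 in WT1 to WT4 and 0.5505, 0.673 and 0.572 in KO1 to KO3, so every KO-labelled library was above every WT library, by a narrow gap for KO1. Gadd45a per Trp53 averaged 0.733 ± 0.143 over WT and 1.34 ± 0.0616 over KO-labelled libraries, also without overlap, while Ccng1 per Trp53 overlapped (0.221 to 0.263 in WT and 0.204 to 0.243 in KO-labelled libraries). Sesn1 per Sesn2 ranged from 3.23 to 4.03 over WT and from 2.38 to 3.17 in KO-labelled libraries.

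The makeup of the GADD45 family varied by library. Gadd45b made up 44.8% to 51.0% of the summed FPKM of the 3 genes in WT, and 38.8%, 49.1% and 45.2% in KO1 to KO3. Gadd45a made up 25.7% to 30.7% in WT and 29.9% to 35.2% in KO-labelled libraries, and Gadd45g 21.5% to 24.5% and 21.0% to 26.0%, so each share overlapped between the groups. Phlda3 per Eda2r, the pair that moved in opposite directions, was 0.679 to 1.23 in WT and 7.40, 2.32 and 2.76 in KO1 to KO3. These ratios were chosen after the levels were seen and carry no test.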
